A study of Sus scrofa with 2 samples.

Results

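The miR-29 family was followed through small RNA libraries of whole pig testis from sexually mature boars of 180 days and sexually immature boars of 30 days. All animals were Junmu-1 boars, a white Chinese breed, with no treatment named. At each age the RNA of 3 boars was pooled into 1 library, so no spread between animals was measured, and no test between the ages and no p-value can be given. A tag is a distinct read sequence, and each listed tag carried its read count and the name of 1 known miRNA of any species. The family was taken as every tag named miR-29 or miR-29a to miR-29d once species, copy number and arm were dropped, and reads were summed for each name and arm. This gave 8 of the 1385 names in the lists, 7 of them in the 180-day and 8 in the 30-day library, collected from 22 species entries. They held 34872 reads in 731 tags of the 180-day library and 137810 reads in 1273 tags of the 30-day library.

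miRNAs are cut from both arms of an RNA hairpin, and usually 1 arm is kept while the other, marked here with a star, is degraded. A kept miRNA finds its target mRNAs mainly through the seed, bases 2 to 8 from its 5′ end, and lowers their translation and stability. The miR-29 family is kept from the 3p arm and is known for lowering collagens, elastin and other proteins of the extracellular matrix, the de novo DNA methyltransferases DNMT3A and DNMT3B, and the survival protein MCL1. The names miR-29a*, miR-29b* and miR-29c* are the 5p arms. RefSeq annotates in Sscrofa11.1, the pig assembly, 4 family genes in neighbouring pairs on different chromosomes, MIR29B-1 beside MIR29A next to KLF14, and MIR29B-2 beside MIR29C next to CD46. The miR-29b 3p arm can come from either pair, whereas the 5p arms tell the genes apart.

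The main 3p sequences are shown because the later values count reads of these forms and their variants. They are the listed human (miR-29a and miR-29b) and mouse (miR-29c) entries, each equal to the most read tag of its name in both libraries, with T for U and the seed in capitals.
miR-29a: tAGCACCAtctgaaatcggtta
miR-29b: tAGCACCAtttgaaatcagtgtt
miR-29c: tAGCACCAtttgaaatcggtta
The seed was identical in the 3 sequences. Counted from the 5′ end, miR-29c differed from miR-29a by C10T alone over the 22 positions compared. miR-29b carried C10T too and further differed by G18A, T21G and A22T, with 1 more base at its end. In other mammals the end of miR-29b, AGTGTT in these letters, is known to direct it to the nucleus.

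The 5p arms are shown because they separate the 4 genes, again as listed entries with the seed in capitals.
miR-29a*: aCTGATTTcttttggtgttcag
miR-29b-1*: gCTGGTTTcatatggtggtttaga
miR-29b-2*: cTGGTTTCacatggtggcttag
miR-29c*: tGACCGATttctcctggtgttc
No 2 of these entries had the same bases 2 to 8, and none had the seed of the 3p arm. Unlike the 3p entries, those of miR-29a* and miR-29c* were not the most read tag of their name in either library. The most read miR-29b* tag at 30 days, with 5 reads, was miR-29b-2* started 1 base earlier. Its bases 2 to 8 equal those of the miR-29b-1* entry, so that difference depends on the start.

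The lists held 852209 miRNA-matched reads at 180 days, against 7525725 at 30 days. Levels are given as RPM, reads per 1000000 miRNA-matched reads, on which 3 reads equal 3.52 RPM at 180 days, against 0.399 RPM at 30 days. Intervals in parentheses are exact 95% Clopper-Pearson intervals, binomial for shares and conditional for ratios, and cover counting error only, since PCR copies were not marked by molecular identifiers. The tag numbers of the lists followed falling read counts and were read as ranks over the whole library, an inference from the numbers. On that reading miRNA-matched reads made up at most 7.08% of the 180-day library, against at most 59.2% of the 30-day library. Every log2 ratio then shifted by -3.06 per read of the whole library at the lowest totals that the ranks allow. The ratios below therefore describe the makeup of the miRNA pool, and their direction per read of the whole library is given separately.

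The family as a whole took 4.09% of the miRNA pool at 180 days (4.05 to 4.13%), against 1.83% at 30 days (1.82 to 1.84%). Its 3p arms together had 34793 reads, or 40827 RPM, at 180 days, against 137670 reads, or 18293 RPM, at 30 days. The 180-day level was 2.23 times the 30-day one (2.21 to 2.26), or 1.16 on the log2 scale, but 0.267 times it when all reads of the whole library were the base. In bulk tissue, more cells that hold a miRNA and more of it in each cell cannot be told apart.

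miR-29a carried almost all of this. It had 32362 reads, or 37974 RPM, at 180 days, against 130594 reads, or 17353 RPM, at 30 days. Its ratio was 2.19 (2.16 to 2.22), and it ranked 9 among the 904 names with reads at 180 days, against 14 among the 1184 at 30 days. miR-29c had 2163 reads, or 2538 RPM, at 180 days, against 6637 reads, or 882 RPM, at 30 days, giving a ratio of 2.88 (2.74 to 3.02). It ranked 47 at 180 days, against 70 at 30 days. miR-29b was the scarcest main member, with 266 reads, or 312 RPM, at 180 days, against 433 reads, or 57.5 RPM, at 30 days. Its ratio of 5.42 (4.64 to 6.33) was the highest of the 3, and it ranked 115 at 180 days, against 188 at 30 days.

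**Figure D1:**
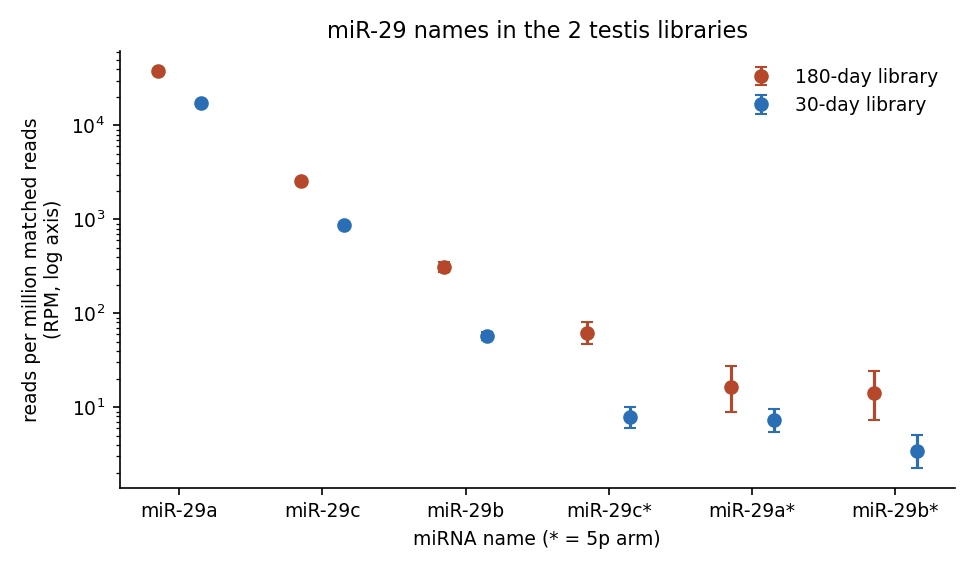
RPM over miRNA-matched reads (log axis) of the 6 miR-29 names with 20 or more reads, at 180 days and at 30 days, with exact 95% counting intervals and 1 library per age. The 180-day point lies above the 30-day point for each name, from 37974 against 17353 RPM for miR-29a to 14.1 against 3.45 RPM for miR-29b*. With the lowest whole-library totals as the base each lies below, but the ratio intervals of miR-29b* and miR-29c* then hold 1.

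The remaining 3p names had few reads. miR-29d, from a cattle and a frog entry, had 2 reads at 180 days, against 5 at 30 days, giving a ratio of 3.53 (0.336 to 21.6) whose interval holds 1. The name miR-29, from a sea urchin entry, had 0 reads at 180 days, against 1 read at 30 days, both at or below 3 reads, so no ratio is given.

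The order miR-29a over miR-29c over miR-29b was the same in both libraries, but the proportions differed. miR-29a made up 93.0% of the 3p reads at 180 days (92.7 to 93.3%), against 94.9% at 30 days (94.7 to 94.98%). miR-29c made up 6.22% at 180 days (5.97 to 6.48%), against 4.82% at 30 days (4.71 to 4.94%). miR-29b made up 0.765% at 180 days (0.676 to 0.862%), against 0.315% at 30 days (0.286 to 0.346%). The counting intervals of the libraries did not overlap for any of the 3. These proportions do not depend on how the libraries are scaled to each other.

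miR-29b was set against each of the members that it shares a gene pair with. There were 12.3 miR-29b reads for every 100 miR-29c reads at 180 days (10.8 to 14.0), against 6.52 at 30 days (5.91 to 7.19). Per 100 miR-29a reads there were 0.822 at 180 days (0.726 to 0.927), against 0.332 at 30 days (0.301 to 0.364). miR-29b was thus far below either partner in both libraries. Ligation and PCR favour some sequences over others, so a ratio of reads between miRNAs is not a ratio of molecules.

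The 5p arms were rare at both ages. They had 79 reads, or 92.7 RPM, at 180 days, against 140 reads, or 18.6 RPM, at 30 days, giving a ratio of 4.98 (3.73 to 6.61). As a share of family reads they made up 0.227% at 180 days (0.179 to 0.282%), against 0.102% at 30 days (0.0855 to 0.1199%). Perfect-match tags, those with no mismatched or unmatched base, gave a share of 0.0412% from 11 reads at 180 days (0.0206 to 0.0737%), against 0.0178% from 20 reads at 30 days (0.0109 to 0.0275%), and these intervals overlapped.

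Of the 3 members, miR-29c had a 5p share that was higher at 180 days beyond counting error when all listed tags were counted. miR-29c* had 53 reads, or 62.2 RPM, at 180 days, against 59 reads, or 7.84 RPM, at 30 days, with a ratio of 7.93 (5.37 to 11.7), the highest among the family names with 20 or more reads. With perfect-match tags its ratio was 14.2 (1.62 to 169.6) and that of miR-29b* 9.44 (2.17 to 41.0), on few reads. The exact miR-29c* entry had only 3 reads at 180 days, against 2 at 30 days, too few to compare its share. With all listed tags the share of miR-29c* in miR-29c reads was 2.39% at 180 days (1.80 to 3.12%), against 0.881% at 30 days (0.671 to 1.14%). miR-29a* had 14 reads, or 16.4 RPM, at 180 days, against 55 reads, or 7.31 RPM, at 30 days, giving a ratio of 2.25 (1.15 to 4.10). Its share of miR-29a reads was 0.0432% at 180 days (0.0236 to 0.0725%), against 0.0421% at 30 days (0.0317 to 0.0548%), with overlapping intervals. miR-29b* had 12 reads, or 14.1 RPM, at 180 days, against 26 reads, or 3.45 RPM, at 30 days, giving a ratio of 4.08 (1.87 to 8.37). Its share of miR-29b reads was 4.32% at 180 days (2.25 to 7.42%), against 5.66% at 30 days (3.73 to 8.19%), and these intervals overlapped too.

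The copies of miR-29b* were counted apart. The copy of MIR29B-2, the neighbour of MIR29C, had 12 reads at 180 days, against 13 at 30 days, giving a ratio of 8.15 (3.40 to 19.4). The copy of MIR29B-1, the neighbour of MIR29A, had 0 reads at 180 days, against 13 reads, or 1.73 RPM, at 30 days. With 3 reads as the limit for a count of 0, the 180-day level could reach 3.52 RPM, and the exact interval reaches 4.33 RPM. Both lie above the 30-day level, so a difference in this copy was not detectable at this depth. Taken over both copies, MIR29B-2 gave 12 of 12 reads at 180 days (73.5 to 100%), against 13 of 26 at 30 days (29.9 to 70.1%). With miR-29a* and miR-29c* added, the pair MIR29B-2 and MIR29C held 83.3% of 78 such 5p reads at 180 days (73.2 to 90.8%), against 52.6% of 137 at 30 days (43.9 to 61.1%). These shares rest on few reads, and the entry of platypus miR-29a, with 1 read at 180 days, against 3 at 30 days, was left out of them. The sequence of that entry is nearer to miR-29c* than to miR-29a*, although its reads count as miR-29a* by name. Placed by sequence, with tied tags split, miR-29a* had 13 reads at 180 days, against 52.5 at 30 days. miR-29c* then had 54 reads at 180 days, against 61.5 at 30 days.

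All 6 family names with 20 or more reads over both libraries had a ratio of 2 or more with an interval above 1, and 0 had a ratio of 0.5 or less. Over the 469 names with 20 or more reads, 138 met the rule for higher (29.4%) and 53 the rule for lower (11.3%). Among the 403 of them with a mammalian entry the shares were 27.3% higher and 11.2% lower, a choice made after seeing the data. With perfect-match tags alone, 3 family names kept 20 reads and all 3 were higher, beside 23.2% of names higher and 11.1% lower. The median log2 ratio was 1.78 for the 6 family names and 0.22 for all 469. From the highest ratio down, miR-29c* ranked 37 of 469, miR-29b 49, miR-29b* 71, miR-29c 97, miR-29a* 124 and miR-29a 130. Among the 153 names with 1000 or more reads, miR-29c ranked 15 and miR-29a 26. The 6 names come from 4 genes in 2 pairs and share hairpins, so they are not independent.

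**Figure D2:**
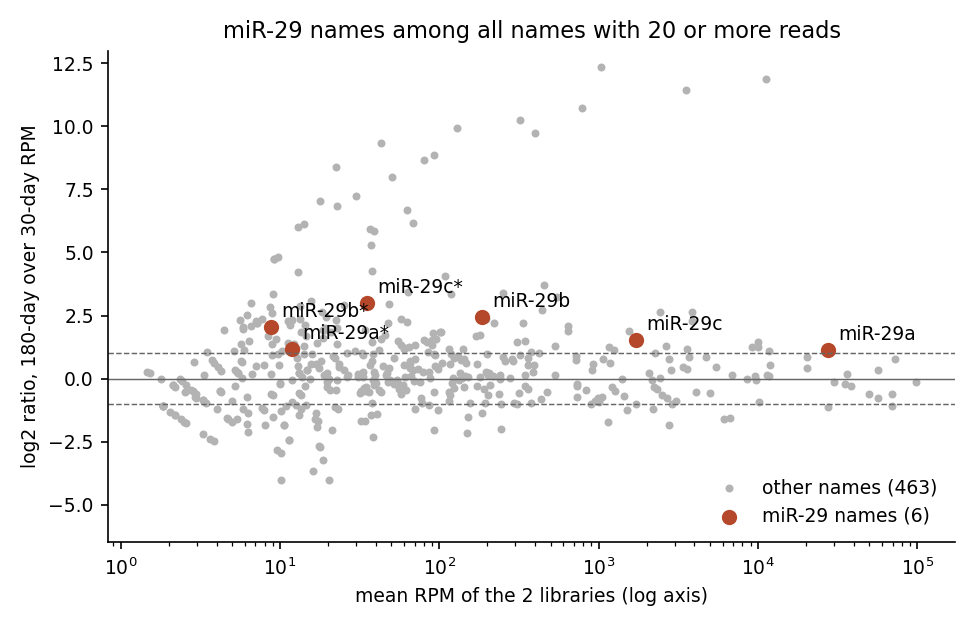
The log2 ratio of 180-day to 30-day RPM against the mean RPM of the 2 libraries (log axis) for all 469 names with 20 or more reads, with the 6 miR-29 names marked and dashed lines at 2-fold. A name with 0 reads in 1 library is drawn with 3 reads there. The miR-29 names lie between 1.13 and 2.99, all above the upper dashed line on this scale.

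The direction depended on the scaling. Each scaling shifts the log2 ratios of all names alike, so the order of the members cannot change with it. With TMM scaling in edgeR, which shifts every log2 ratio by -0.91, the family ratio was 0.25 on the log2 scale and 2 of the 6 names, miR-29b and miR-29c*, met the rule for higher and 0 for lower, beside 15.4% of all names higher and 33.7% lower. With the median-of-ratios size factors of DESeq2, a shift of -0.89, the family ratio was 0.26 and 3 names met it, the third being miR-29b*, and 0 were lower, beside 15.8% of all names higher and 33.7% lower. With the whole library as the base, at the lowest totals, the family's 3p arms had 2891 RPM of all reads at 180 days, against 10831 at 30 days, which makes 0.267, or -1.91 on the log2 scale. There 0 of the 6 names were higher, beside 5.76% of all names, and 3 were lower (miR-29a, miR-29c and miR-29a*), beside 84.4% of all names. miR-29c* had a whole-library ratio of 0.949 (0.642 to 1.40), whose interval holds 1, and miR-29b of 0.649 (0.555 to 0.758).

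**Figure D3:**
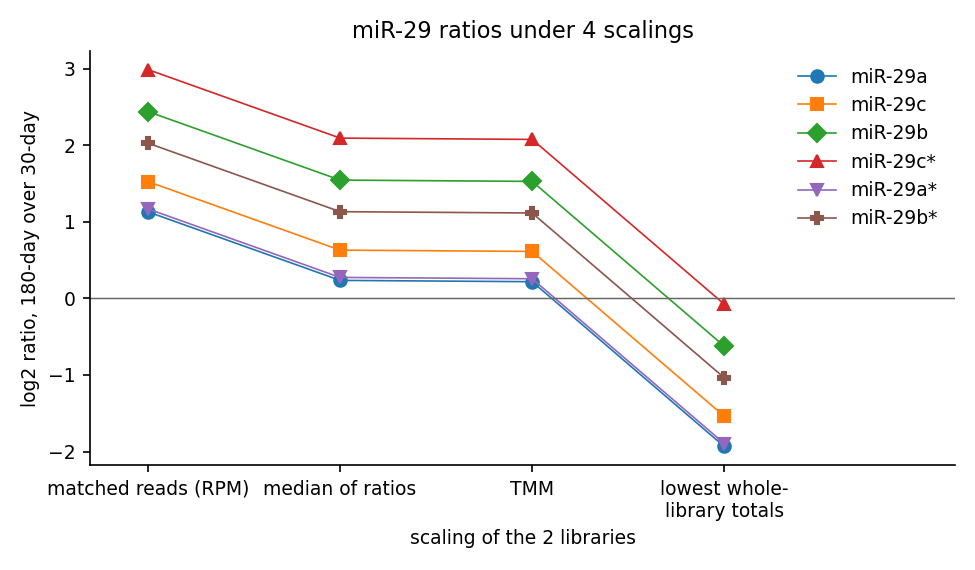
The log2 ratio of the 180-day to the 30-day library for the 6 miR-29 names under 4 scalings, 1 line per name. All points lie above 0 with matched reads, median of ratios and TMM. At the lowest whole-library totals all lie below 0, from -1.93 for miR-29a to -0.076 for miR-29c*. The intervals, not drawn, hold no change for miR-29a* with median of ratios and TMM and for miR-29b* with TMM. At the whole-library totals they hold it for miR-29b* and miR-29c*.

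miR-29a and miR-29c differ in a single base, so their tags were set against tags with the same kind of change at other positions. The base that separates them is in capitals here.
miR-29a: tagcaccatCtgaaatcggtta
miR-29c: tagcaccatTtgaaatcggtta
Among 22-base tags, the miR-29c tag made up 7.30% of its own and the exact miR-29a reads at 180 days (6.99 to 7.63%), against 5.17% at 30 days (5.04 to 5.30%). The same change, C to T, at the other 4 C positions of miR-29a made up 0.0765 to 0.377% at 180 days and 0.0756 to 0.337% at 30 days. The miR-29c tag was thus far more frequent than this change elsewhere in the molecule, in both libraries.

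Names did not always follow that base. The listed chicken entry of miR-29a carries the miR-29c base, and its tags, 202 reads at 180 days, against 420 at 30 days, count here as miR-29a. Placed by sequence instead, miR-29c had 2384 reads at 180 days, against 7083.5 at 30 days, tied tags being split, and a ratio of 2.97 (2.84 to 3.11). miR-29a then had 32141 reads at 180 days, against 130153 at 30 days, and a ratio of 2.18 (2.15 to 2.21). Of the family reads, 0.209% at 180 days, against 0.305% at 30 days, matched no main sequence without a gap and kept their names.

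Changes at the other positions of miR-29a were counted in the same way. Over positions 1 to 19 without position 10, reads with 1 changed base made up 0.0808 to 0.678% per position at 180 days and 0.0651 to 0.511% at 30 days. The change A22T, which cannot be told from a shortened tag with a T added, made up 2.76% at 180 days (2.55 to 2.97%), against 1.70% at 30 days (1.63 to 1.78%). T21A made up 0.487% at 180 days (0.402 to 0.584%), against 0.122% at 30 days (0.101 to 0.145%). T20G went the other way, with 0.267% at 180 days (0.206 to 0.342%), against 0.742% at 30 days (0.691 to 0.796%). Of 60 other names with 1000 or more reads in each library, 8 had a larger difference than miR-29a for the changed last base. T21A and T20G were not set against other names. Perfect-match tags held 59.4% of all matched reads at 180 days, against 63.6% at 30 days. Of the 3p reads of the family they held 76.7% at 180 days, against 81.4% at 30 days.

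**Figure D4:**
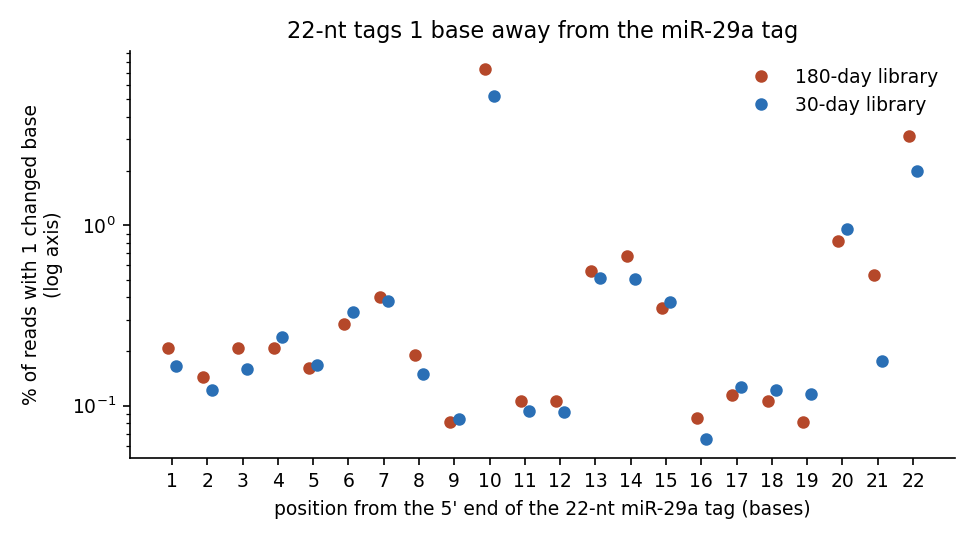
Share of reads with 1 changed base (log axis, in percent of those and the exact reads, summed over the 3 possible changes) at each position of the 22-base miR-29a tag, for the 180-day and the 30-day library. Position 10, where the change to T gives the miR-29c tag, stands highest, that tag making up 7.30% at 180 days, against 5.17% at 30 days, and position 22 follows.

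The 5′ end was compared next, since a shifted start gives another seed. Placed by sequence, 94.5% of the 3p reads began at the leading start at 180 days (94.2 to 94.7%), against 97.0% at 30 days (96.9 to 97.1%). The most frequent other start lay 1 base earlier, with 3.598% of the 3p reads at 180 days (3.41 to 3.799%), against 1.20% at 30 days (1.14 to 1.25%). Of these reads 97.0% at 180 days, against 97.4% at 30 days, had C as the added base, as the listed cattle and gorilla entries have. The leading miR-29a tags of the main, the earlier and the later start are set side by side, with the seed that each start gives in capitals.
Leading start: tAGCACCAtctgaaatcggtta
Earlier by 1 base, 23 bases long: cTAGCACCatctgaaatcggtta
Earlier by 1 base, 22 bases long: cTAGCACCatctgaaatcggtt
Later by 1 base: aGCACCATctgaaatcggtta

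The earlier start was more frequent at 180 days in each of the 3 members. In miR-29a it made up 3.77% of the 3p reads at 180 days (3.56 to 3.98%), against 1.25% at 30 days (1.19 to 1.31%). In miR-29b it made up 6.87%, or 18 of 262 reads, at 180 days (4.12 to 10.6%) and 1.21%, or 5 of 412 reads, at 30 days (0.395 to 2.81%). In miR-29c it made up 1.10% at 180 days (0.717 to 1.60%), against 0.313% at 30 days (0.196 to 0.474%). The intervals of the libraries did not overlap for any member. Intervals were not computed for other names, and by the measure given below 42 of 60 of those also had a higher share at 180 days. In RPM, the earlier start of miR-29a had 1417 at 180 days, against 215.0 at 30 days, giving a ratio of 6.59 (6.11 to 7.11), beside 2.12 (2.09 to 2.15) for its leading start.

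The single tags were as follows. The 22-base tag of the earlier start had 518 reads at 180 days, against 699 at 30 days, giving a ratio of 6.54 (5.83 to 7.34), and the 23-base tag 444 reads at 180 days, against 639 at 30 days, 6.14 (5.42 to 6.94). The exact miR-29a tag had 23501 reads at 180 days, against 104368 at 30 days, giving a ratio of 1.99 (1.96 to 2.02). The later start had 312 reads at 180 days, against 931 at 30 days, giving a ratio of 2.96 (2.59 to 3.37).

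The same measure was taken for the 60 other names with 1000 or more reads in each library, relative to the most read tag of each name and counting tags by their name. For miR-29a it gave 3.61% at 180 days, against 1.19% at 30 days, a difference of 2.42 percentage points. The median of the 60 names was 0.328% at 180 days, against 0.143% at 30 days, and the median difference 0.0546 points. The share was higher at 180 days in 42 of the 60, and 2 of the 60 had a larger difference than miR-29a. miR-29c, measured alike, had 0.324% at 180 days, against 0.0904% at 30 days, and 20 of the 60 had a larger difference. No test of miR-29a against these names was made.

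**Figure D5:**
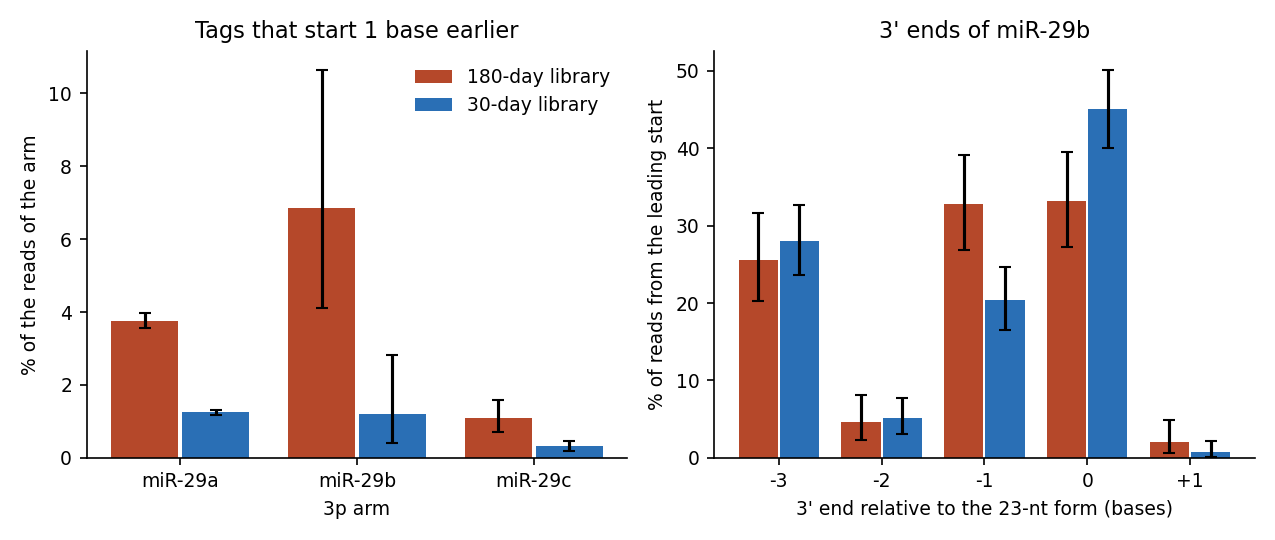
Left, the share of the 3p reads of miR-29a, miR-29b and miR-29c that start 1 base earlier, and right, the 3′ ends of miR-29b reads from the leading start relative to the 23-base form, both in percent with exact 95% counting intervals, for the 180-day and the 30-day library. The 180-day bar is higher in all 3 members on the left, and on the right 33.2% of the reads at 180 days, against 45.0% at 30 days, have the 23-base end.

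At the 3′ end miR-29a and miR-29c had 1 main length, while miR-29b had 3. Among reads from the leading start, the 22-base end was carried by 85.0% of miR-29a reads at 180 days (84.6 to 85.4%), against 89.2% at 30 days (89.0 to 89.3%). In miR-29c it was carried by 87.7% at 180 days (86.2 to 89.0%), against 90.9% at 30 days (90.2 to 91.6%). Ends short by 1 base made up 10.8% in miR-29a at 180 days (10.5 to 11.2%), against 7.88% at 30 days (7.73 to 8.03%). For the tag short by 1 base, counted by name, 5 of the 60 other names had a larger difference than miR-29a. In miR-29c ends short by 1 base made up 8.63% at 180 days (7.52 to 9.85%), against 5.76% at 30 days (5.22 to 6.34%).

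Tags of miR-29a longer by 1 base ended mostly in A or T, shown in capitals.
With A: tagcaccatctgaaatcggttaA
With T: tagcaccatctgaaatcggttaT
With T as the last of 22 bases: tagcaccatctgaaatcggttT
The added A made up 2.01% of miR-29a reads from the leading start at 180 days (1.86 to 2.18%), against 1.15% at 30 days (1.10 to 1.21%). The added T made up 1.12% at 180 days (1.00 to 1.24%), against 0.851% at 30 days (0.801 to 0.904%). An added C or G had 6 reads or fewer each at 180 days, against 20 or fewer at 30 days. Of the 60 other names, counted by name, 12 had a larger difference than miR-29a for the added A and 24 for the added T. In miR-29c the added A made up 1.90% at 180 days (1.38 to 2.54%), against 1.55% at 30 days (1.27 to 1.87%), and the added T 0.734% at 180 days (0.428 to 1.17%), against 0.856% at 30 days (0.652 to 1.10%). The intervals overlapped for both bases. No pig genome was used here, so an added base cannot be told from the next base of the hairpin.

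The miR-29b ends are printed because the nuclear signal known from other mammals lies in the last bases. Capitals mark what each tag keeps of its last 6 bases.
23 bases: tagcaccatttgaaatcAGTGTT
22 bases: tagcaccatttgaaatcAGTGT
21 bases: tagcaccatttgaaatcAGTG
20 bases: tagcaccatttgaaatcAGT
The 23-base tag had 69 reads at 180 days, against 159 at 30 days, giving a ratio of 3.83 (2.85 to 5.11). The 22-base tag had 66 reads at 180 days, against 68 at 30 days, giving a ratio of 8.57 (6.02 to 12.2). The 21-base tag had 10 reads at 180 days, against 18 at 30 days, and the 20-base tag, which equals the listed pig entry, 55 reads at 180 days, against 106 at 30 days, giving a ratio of 4.58 (3.25 to 6.40).

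Among all miR-29b reads from the leading start, the 22-base end made up 32.8% at 180 days (26.8 to 39.1%), against 20.4% at 30 days (16.5 to 24.7%). The 23-base end made up 33.2% at 180 days (27.2 to 39.6%), against 45.0% at 30 days (40.05 to 50.1%). The end short by 3 bases made up 25.6% at 180 days (20.2 to 31.7%), against 28.0% at 30 days (23.6 to 32.7%), with overlapping intervals. The whole AGTGTT end was held by 30.9% of 262 miR-29b reads at 180 days (25.4 to 36.9%), against 42.7% of 412 at 30 days (37.9 to 47.7%). A further miR-29b form, with a T added, was listed under the cattle entry miR-29e and so is not a member by name.
With T: tagcaccatttgaaatcAGTGTTT
It had 8 reads at 180 days, against 25 at 30 days. With it the end was held by 33.0% of 270 reads at 180 days (27.4 to 38.9%), against 46.0% of 437 at 30 days (41.2 to 50.8%), with intervals that did not overlap.

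Names with a ratio like that of the family were looked up among those with 1000 or more reads, by the distance of the log2 ratio over the 2 libraries from that of the 3p arms together. The nearest 5 were miR-16, miR-195, miR-30e-5p, miR-30d and miR-202*. miR-16 had 4932 RPM at 180 days, against 2209 RPM at 30 days, giving a ratio of 2.23 (2.16 to 2.31). Ratios stood at 2.20 (2.08 to 2.33) for miR-195, 2.35 (2.21 to 2.49) for miR-30e-5p, 2.11 (2.07 to 2.15) for miR-30d and 2.39 (2.34 to 2.44) for miR-202*. With 2 libraries a name has a single ratio, so this likeness is only a near value.

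Other miRNAs linked to the matters that miR-29 is known for were counted by the same rule. Of 17 measured names linked to extracellular matrix and fibrosis, 4 were higher, 0 lower and 13 neither, beside 29.4% higher and 11.3% lower over all 469 names. Their median log2 ratio was 0.26, beside 0.22 over all names. Its most abundant names, miR-199a-3p, miR-101, let-7d and miR-26a, stood at 0.652 (interval 0.645 to 0.659), 0.822 (interval 0.812 to 0.832), 0.918 (interval 0.906 to 0.931) and 1.07 (interval 1.05 to 1.10) in that order, as ratios. Of 20 measured names linked to DNA methyltransferase or TET transcripts, 2 were higher, 2 lower and 16 neither, beside the same 29.4% and 11.3%, and the median log2 ratio was 0.20. Its most abundant names beside miR-101 and miR-26a were miR-143, with a ratio of 2.76 (2.70 to 2.81), and miR-185, with 1.39 (1.35 to 1.43). miR-148a, known to act on DNMT1 and DNMT3B and picked after its value was seen, was lower. It had 1931 RPM at 180 days, against 3874 RPM at 30 days, with a ratio of 0.499 (0.474 to 0.524) close to the limit of 0.5. The other lower name was miR-342-5p, at 0.365 (0.132 to 0.815). The higher names were miR-143 and miR-22*, the latter at 2.78 (2.49 to 3.10).

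Markers of cell types that whole testis can hold were set beside these values, again by RPM. By the same rule 29.4% of all 469 names were higher and 11.3% lower, and each count below stands beside these shares. Of the 8 names of meiotic and later germ cells with 20 or more reads, forms of miR-34b, miR-34c, miR-449a and miR-449b, 8 were higher. The list had 35278 RPM in all at 180 days, against 11.4 RPM at 30 days, where 3 of its 10 names had 0 reads. The smooth muscle names miR-143 and miR-145 summed to 17994 RPM at 180 days, against 6581 RPM at 30 days, with 3 of 4 higher. The fibroblast and mesenchyme names of miR-199a, miR-199b and miR-214 summed to 40571 RPM at 180 days, against 62556 RPM at 30 days, with 0 of 6 higher and 1 lower. With the 3 names listed as miR-199 without a letter, added after seeing the data, the sum was 61324 RPM at 180 days, against 111099 RPM at 30 days, with 0 of 9 higher and 4 lower. The endothelial miR-126 names summed to 629 RPM at 180 days, against 381 RPM at 30 days, with 0 of 3 past the rule. The ratios were 1.90 for miR-126-5p and 1.53 for miR-126, but 0.681 for miR-126-3p (0.434 to 1.02), whose interval holds 1. The red blood cell names summed to 3933 RPM at 180 days, against 1742 RPM at 30 days, with 1 of 4, miR-451, higher. miR-451 held 3774 RPM of the sum at 180 days, against 1535 RPM at 30 days, and the ratios of miR-486-5p, miR-144* and miR-144 were 0.697, 0.868 and 0.833. Their part in the miR-29 ratios was not tested.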

How the data were processed

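Per the labels' protocols, total RNA of 3 boars per age was pooled, small RNA was cut from a gel, put through 15 PCR cycles and read on the Solexa 1G instrument. The authors deposited raw, unscaled read counts for each tag, with the known miRNA it matched, its length and its mismatches. For aligner, miRBase release and genome build, names were not given in the sources used here. Counts were summed by the listed name and arm, without merging names by sequence, and divided by the miRNA-matched reads of the library. A name was called higher or lower at a ratio of 2 or more, or 0.5 or less, with an interval excluding 1 and 20 or more reads over both libraries. A name with 0 reads was set to 3 reads in 1 library. Family tags were also placed on the main sequences without gaps (up to 2 mismatches, 15 or more matching bases, shifts up to 6). The interval and call were tested on simulated Poisson counts, without spread between animals or PCR copies, so that test covers counting error only. Alternatives were other scalings, perfect-match tags, tags with 2 or more reads, placement by sequence, read minimums and a fold of 1.5. Tools were Python 3.11.15, scipy 1.17.1, R 4.3.3, edgeR 4.0.16 (TMM factors) and DESeq2 1.42.0 (size factors). The named miRNAs were all family names, the 5 nearest in ratio, and up to 4 of the most abundant of each list (all 4 red blood cell names). Others named were miR-148a, miR-342-5p, miR-22* and the names listed as miR-199 without a letter, which were chosen after their values were seen. Single tags were the most read and up to 5 others per main member, beside the miR-29a tags with the last base T and with a start 4 bases late and the changes T21A and T20G, which were chosen after their values were seen. The members and lists were chosen with earlier results of these data known.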

Additional observations from a re-analysis of the deposited data

Results flagged for a closer look

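A signal lay in tags outside the family rule, unused in any comparison by name and above the 3-read floor for a count of 0. The cattle entry miR-29e held 24 reads at 180 days, against 69 at 30 days. Its most read tag, with 8 reads at 180 days, against 25 at 30 days, was the 23-base miR-29b with a T added. Counted as RPM, the entry had 28.2 at 180 days, against 9.17 at 30 days, giving a ratio of 3.07 (1.85 to 4.95).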

How the results depend on the processing

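The log2 ratio of the family's 3p arms, 1.16 as reported, was 0.25 with TMM and 0.26 with median-of-ratios scaling, and it reversed to -1.91 at the lowest whole-library totals. There the log2 ratio was -1.93 for miR-29a, -1.90 for miR-29a*, -0.62 for miR-29b, -1.04 for miR-29b*, -1.54 for miR-29c and -0.076 for miR-29c*. The construction of the scalings sets these shifts. Of the 6 names at least 2-fold higher, the count was 2 with TMM, 3 with median of ratios, 0 at the whole-library totals and 3 of 3 with perfect-match tags, beside 15.4%, 15.8%, 5.76% and 23.2% of all names. With perfect-match tags the miR-29a share of 3p reads was 92.3% at 180 days and 94.6% at 30 days, and placed by sequence 92.4% at 180 days and 94.5% at 30 days. The 5p share was 0.0412% at 180 days and 0.0178% at 30 days with perfect-match tags, and 0.0853% at 30 days with tags of 2 or more reads. The leading start held 96.4% at 180 days and 98.8% at 30 days with perfect-match tags, and 94.9% at 180 days and 97.1% at 30 days with tags of 2 or more reads. miR-29b reads per 100 miR-29c reads were 10.8 at 180 days with perfect-match tags. In each of these shares the order of the libraries was as reported. The minimum of 100 reads gave 4 of 4 higher names, no minimum 6 of 8 and the 1.5-fold rule 6 of 6, beside 23.5%, 18.1% and 37.3% of all names. In alternatives chosen after seeing the data, the share of all names called higher was 27.3% over names with a mammalian entry, and the summed mesenchyme ratio was 0.552 with names listed without a letter, beside 0.649. No paired analysis was possible because each age has 1 library, and for the same reason no library could be left out. The 5p arms of all 3 members, with 12 to 59 reads per library, are limited by depth.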

Other observations

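A miR-29a tag that starts 4 bases late, with bases 2 to 8 of the shortened form in capitals, had a ratio whose interval holds 1.
Later by 4 bases: aCCATCTGaaatcggtta
It had 51 reads, or 59.8 RPM, at 180 days, against 400 reads, or 53.2 RPM, at 30 days, giving a ratio of 1.13 (0.824 to 1.51), beside 1.99 (1.96 to 2.02) for the exact miR-29a tag.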
